A study of Mus musculus with 6 samples.

Results

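Genes of the neutrophil primary granule, *Mpo*, *Elane*, *Prtn3*, *Ctsg*, *Ms4a3* and *Fcnb*, were followed in RNA-seq of sorted mouse megakaryocyte–erythroid progenitors (MEPs), the bone marrow cells that give rise to red blood cells and megakaryocytes. The 6 genes were taken by symbol, and all 6 of 6 had a value in every library among the 12101 genes of the deposited table. The mice were adult Nanog-tg animals of strain CD-1, which carry the M2-rtTA transactivator at the *Rosa26* locus and a *Nanog* cDNA under a doxycycline-responsive promoter. Treated mice received doxycycline (dox) in the drinking water for 5 days, and untreated mice of the same genotype did not, with 3 libraries in each group. Both groups carry the transgene and only the treated group received dox, so an effect of the drug and an effect of the induced *Nanog* cannot be told apart. The transactivator at *Rosa26* is not specific to MEPs, and the induction was systemic. MEPs were sorted with antibodies against lineage markers, cKit, Sca1, CD34 and CD16/32. Whether a replicate was 1 mouse or a pool is not given in the sources used here, so p-values measure the spread between these libraries. *Nanog* read at 1024 to 1460 CPM (reads per 1000000, after scaling of library sizes by the authors) in the treated libraries and at 0.091 to 0.961 CPM in the untreated ones, as labelled. Between 11264803 and 16153600 reads per library fell on the listed genes.

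Primary, or azurophil, granules are the first granules to form in the neutrophil lineage, and their contents are transcribed mainly in promyelocytes and in the granulocyte–macrophage progenitors (GMPs) that precede them. *Mpo* encodes myeloperoxidase, the heme enzyme that makes hypochlorous acid from hydrogen peroxide and chloride. *Elane*, *Prtn3* and *Ctsg* encode the serine proteases neutrophil elastase, proteinase 3 and cathepsin G, which are stored in the same granules. *Ms4a3* encodes a membrane protein of the MS4A family and is a label of the GMP lineage, and *Fcnb* encodes ficolin B, a lectin of myeloid cells. MEPs lie on the other branch of myelopoiesis, and their mature progeny do not carry such granules.

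The genes lie on 5 chromosomes, at chr11:87607083-87617915 (*Mpo*, ENSMUSG00000009350, plus strand), chr10:79349057-79350961 (*Elane*, ENSMUSG00000020125, plus strand), chr10:79337221-79345919 (*Prtn3*, ENSMUSG00000057729, plus strand), chr14:56718718-56721411 (*Ctsg*, ENSMUSG00000040314, minus strand), chr19:11703987-11715341 (*Ms4a3*, ENSMUSG00000024681, minus strand) and chr2:27931898-27940405 (*Fcnb*, ENSMUSG00000026835, minus strand) of NCBIM37. *Elane* and *Prtn3* are neighbours, 3138 bases apart on the same strand. Because the members moved together, the 250 bases upstream of each RefSeq start were read from the RefSeq promoter table (GRCm38.p6), and each was placed on NCBIM37 by an exact match found once on its chromosome. All 6 of 6 held GGAAGT, the DNA core recognised by factors of the ETS family such as PU.1, on the strand of the gene. The same 6 letters, searched on both strands, occur in 5401 of 27025 promoters of the same length and in 24.4% of the 8284 promoters of genes tested here. The motifs were chosen with these sequences known, and a match is a description, not a bound site. The core with 12 bases on each side is shown for the 6 genes, 5′ to 3′ on the strand of each gene, with the core in capitals. None of these windows overlaps an exon of the NCBIM37 annotation. Of the whole 250 bases, 203 for *Mpo*, 53 for *Prtn3* and 7 for *Fcnb* lie in such exons.
Mpo, chr11:87607052-87607081, plus strand, core at -222 to -217 from the RefSeq start: tggagagagagaGGAAGTtgcctttgtccc
Elane, chr10:79348962-79348991, plus strand, core at -83 to -78: gtgtcccagggaGGAAGTagggctgtggcc
Prtn3, chr10:79342307-79342336, plus strand, core at -93 to -88: aaactggaaggaGGAAGTgggacccacagc
Ctsg, chr14:56721599-56721628, minus strand, core at -205 to -200: agaggaagaaaaGGAAGTagtcacctgttt
Ms4a3, chr19:11715379-11715408, minus strand, core at -55 to -50: tggtatacttggGGAAGTgggtgggccatt
Fcnb, chr2:27940568-27940597, minus strand, core at -187 to -182: tgcctctgcaggGGAAGTgaacctccaaag
Fcnb, chr2:27940483-27940512, minus strand, core at -102 to -97: cagaggcctccaGGAAGTgactatctcctg

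In 5 of the 6 promoters the core is preceded by A, giving AGGAAGT, which occurs in 2109 of the 27025 promoters and in 7.53% of those of tested genes, and *Ms4a3* is the exception. The neighbours *Elane* and *Prtn3* also share AACGG, a form of the core recognised by MYB, at -50 to -46 and at -55 to -51. AACGG is held by 14.8% of all promoters and 20.6% of those of tested genes, and not by the other 4 members. Other forms of the MYB core were not searched. TTGCNNAA, a form of the C/EBP site, was found only in the *Fcnb* promoter among the members, at 2 places, and in 9.55% of all promoters and 7.32% of those of tested genes. TGTGGT, the RUNX core, was found only in that of *Ctsg*, on the opposite strand, and in 14.2% of all promoters and 10.7% of those of tested genes. The whole upstream stretch is shown for *Elane*, which like *Prtn3* carries both GGAAGT and AACGG, at chr10:79348807-79349056 on the plus strand of NCBIM37, outside annotated exons, with these motifs in capitals.
Elane: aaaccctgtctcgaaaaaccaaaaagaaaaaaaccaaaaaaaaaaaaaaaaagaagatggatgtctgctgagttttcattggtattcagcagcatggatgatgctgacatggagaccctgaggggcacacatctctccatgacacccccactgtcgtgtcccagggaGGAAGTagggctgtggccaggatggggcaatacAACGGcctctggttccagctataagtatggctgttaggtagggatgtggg

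All 6 members were lower in MEPs of dox-treated mice, by between 3.92-fold (*Ctsg*) and 15.6-fold (*Fcnb*). Every treated library lay below every untreated library for 6 of 6 members, an arrangement seen in 18.2% of the 12088 genes tested, and 0 of 6 showed the opposite one, seen in 17.7%. With limma on all genes tested, all 6 fell at an adjusted p under 0.05, a call made for 3.18% of genes in this direction. Their median log2 fold change was -2.63, beside -0.03 over all genes tested. Ranked from the most lowered of the 12088 genes, *Fcnb* stood at 19, *Elane* at 35, *Prtn3* at 66, *Ms4a3* at 94, *Mpo* at 100 and *Ctsg* at 162. In a bulk sample, fewer cells of a type and less RNA per cell cannot be told apart.

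**Figure D1:**
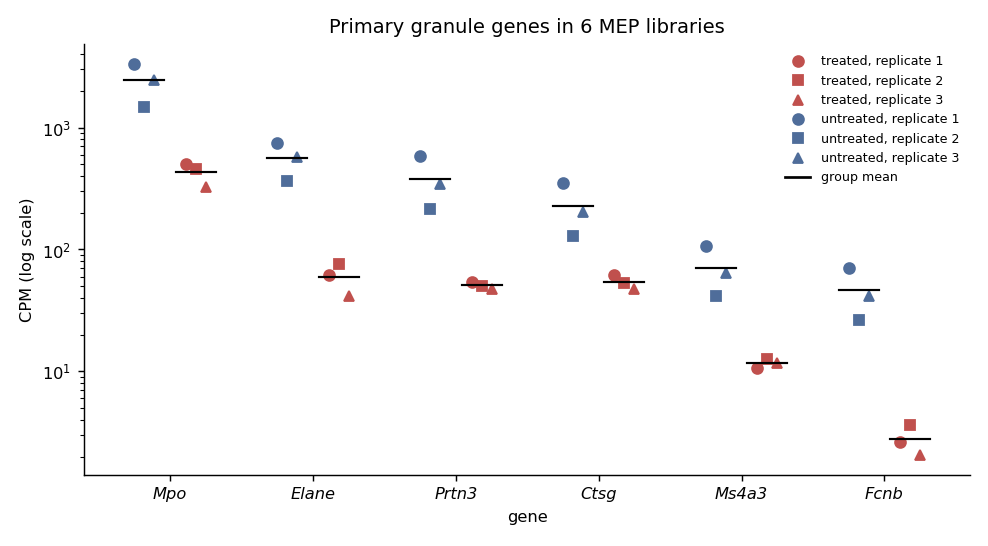
CPM of each member (log scale) in the 3 untreated and the 3 treated libraries, with a bar at each group mean. For all 6 genes the treated points lie below the untreated ones, and the lowest untreated library was between 2.12 times (Ctsg) and 7.27 times (Fcnb) the highest treated one.

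*Mpo*, the enzyme of the granule, was the most abundant member. It read at 3347, 1470 and 2477 CPM in untreated replicates 1, 2 and 3, from 43047, 19893 and 27223 reads. In treated replicates 1, 2 and 3 it read at 506, 460 and 324 CPM, from 6876, 6184 and 5046 reads. The groups do not overlap, and the lowest untreated library held 2.90 times as much as the highest treated one. *Mpo* fell by 2.44 on the log2 scale (SE 0.34, adjusted p = 0.0177 by limma), 5.45-fold. *Gm11505*, a transcript annotated on the opposite strand within *Mpo*, had a mean of 0.788 ± 0.260 CPM in treated and 3.05 ± 1.49 CPM in untreated libraries (SD, n = 3), far below *Mpo* itself, and without a stated strand the reads of the pair cannot be told apart where they overlap.

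Among the serine proteases, *Elane* changed most. It stood at 743, 361 and 575 CPM in untreated replicates 1, 2 and 3 and at 61.4, 75.9 and 41.1 CPM in the treated ones. The treated libraries were all several times below the lowest untreated library, and *Elane* fell by 3.22 on the log2 scale (SE 0.34, adjusted p = 0.0108 by limma), 9.30-fold. *Prtn3*, its neighbour on the chromosome, read at 587, 214 and 345 CPM in untreated and at 54.6, 50.3 and 47.7 CPM in treated replicates 1, 2 and 3. The treated values of *Prtn3* were close to each other, with a highest to lowest ratio of 1.1, while that of the untreated ones was 2.75. *Prtn3* fell by 2.79 (SE 0.36, adjusted p = 0.0156 by limma), 6.90-fold. *Ctsg* changed least of the 6, from 351, 130 and 202 CPM in untreated to 61.2, 52.9 and 47.4 CPM in treated replicates 1, 2 and 3. It fell by 1.97 (SE 0.36, adjusted p = 0.0348 by limma), 3.92-fold.

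The membrane protein gene *Ms4a3* read at 108, 41.5 and 63.6 CPM in untreated replicates 1, 2 and 3 and at 10.8, 12.7 and 11.8 CPM in the treated ones. It fell by 2.48 on the log2 scale (SE 0.34, adjusted p = 0.0177 by limma), 5.59-fold, the size of the change of *Mpo*. The lectin gene *Fcnb* was the scarcest member, at 70.4, 26.5 and 41.7 CPM in untreated and 2.65, 3.65 and 2.05 CPM in treated replicates 1, 2 and 3. The treated values of *Fcnb* rest on 36, 49 and 32 reads, with exact 95% Poisson intervals from 25.2 to 49.8, from 36.3 to 64.8 and from 21.9 to 45.2 reads, against 906, 359 and 458 reads in the untreated libraries. These intervals cover counting error only. *Fcnb* fell by 3.96 (SE 0.40, adjusted p = 0.0101 by limma), 15.6-fold, the largest change among the 6 members.

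For single genes, the two-sided exact permutation test gave p = 0.1 for each of the 6 members, the smallest p that 3 libraries against 3 allow. The limma calls depend on single libraries, although the change remained negative for every member in each of those fits. All 6 members were called without treated replicate 3 or without untreated replicate 2. The call was kept by 4 members (*Elane*, *Fcnb*, *Ms4a3* and *Prtn3*) without untreated replicate 1, by 2 (*Elane* and *Fcnb*) without treated replicate 1 and again by 2 without treated replicate 2, and by 1 (*Fcnb*) without untreated replicate 3. The largest adjusted p of a member was 0.0575, 0.0978, 0.120 and 0.108 in these 4 fits, in the order given. Over all 6 such fits the log2 fold changes of *Ctsg* lay between -2.31 and -1.60, those of *Mpo* between -2.77 and -2.17, and those of *Fcnb* between -4.30 and -3.60.

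Per kb of annotated exon, the untreated level was 710 ± 274 CPM for *Mpo*, 609 ± 208 for *Elane*, 227 ± 113 for *Ctsg*, 220 ± 109 for *Prtn3*, 37.7 ± 17.9 for *Ms4a3* and 34.5 ± 16.7 for *Fcnb* (SD, n = 3). In this order the means of *Mpo* and *Elane*, of *Ctsg* and *Prtn3*, and of *Ms4a3* and *Fcnb* differed by less than the SD between libraries. Within a library the first of each pair was nevertheless the higher in 3 of 3 untreated libraries, by 1.09 to 1.21 times for *Mpo* over *Elane*, 1.01 to 1.05 times for *Ctsg* over *Prtn3* and 1.09 to 1.11 times for *Ms4a3* over *Fcnb*. In treated libraries the levels per kb were 126 ± 27.7 for *Mpo*, 64.6 ± 19.0 for *Elane*, 53.7 ± 6.91 for *Ctsg*, 29.4 ± 1.99 for *Prtn3*, 6.25 ± 0.526 for *Ms4a3* and 2.08 ± 0.602 for *Fcnb*. The order of the means was the same in both groups, and that of the values within each library too, except that in treated replicate 3 *Elane* was at 0.945 times the level of *Ctsg*. The annotation of *Prtn3* holds an upstream exon that overlaps *BC005764* on the opposite strand, so its level per kb may be understated.

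The 6 genes together took 35.9 ± 14.5 of every 10000 reads in untreated MEPs and 6.39 ± 1.58 in treated ones (SD, n = 3). Within this sum *Mpo* made up 65.6% ± 1.29 of the reads in untreated and 70.4% ± 2.17 in treated libraries. The share of *Elane* was 15.3% ± 0.936 in untreated and 9.69% ± 1.63 in treated libraries, and that of *Fcnb* 1.22% ± 0.119 and 0.457% ± 0.0902. The share of *Ctsg* was 6.0% ± 0.665 in untreated and 8.95% ± 0.979 in treated libraries.

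Whether the members changed by the same amount was examined by dividing each by *Mpo* of the same library, which removes the size of the library. The log2 ratio of *Elane* to *Mpo* was -2.17, -2.02 and -2.11 in untreated replicates 1, 2 and 3 and -3.04, -2.60 and -2.98 in the treated ones, without overlap. That of *Fcnb* was -5.57, -5.79 and -5.89 in untreated and -7.56, -6.97 and -7.28 in treated libraries, again without overlap. For *Ctsg* the ratio moved the other way, from -3.25, -3.50 and -3.61 in untreated to -3.05, -3.12 and -2.77 in treated libraries. The differences of the mean log2 ratio, treated minus untreated, were -0.77 for *Elane*, -1.52 for *Fcnb* and 0.48 for *Ctsg*, each with p = 0.1 by the two-sided exact permutation test, the smallest possible, and 0.167 after adjustment over the 5 ratios. For *Prtn3* (-0.34, exact permutation p = 0.3) and *Ms4a3* (-0.04, exact permutation p = 0.9) the groups overlapped. The sign of the *Ms4a3* difference turned positive without treated replicate 1 (0.16) or without untreated replicate 1 (0.048), and with 1 CPM added to both genes (0.051).

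**Figure D2:**
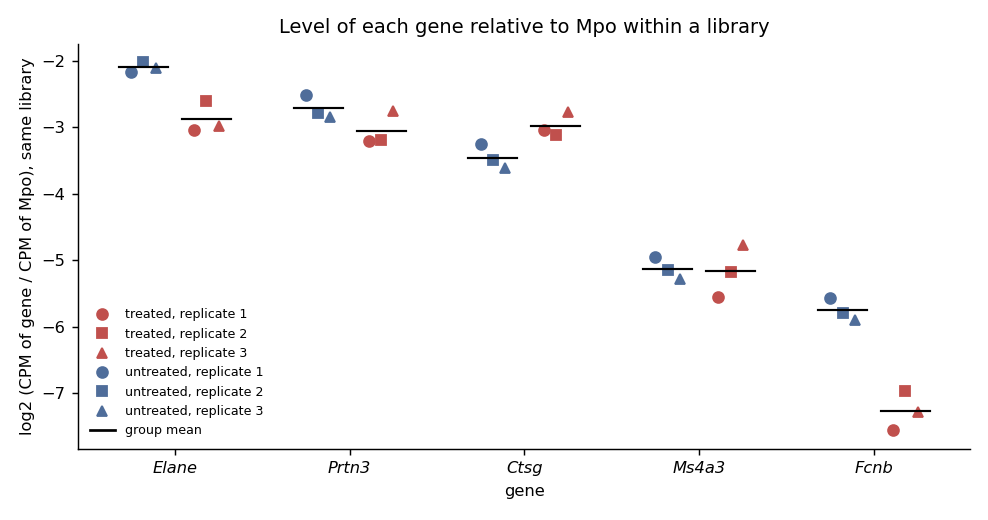
Log2 ratio of the CPM of each other member to the CPM of Mpo in the same library, for the 3 untreated and the 3 treated libraries, with a bar at each group mean. Elane and Fcnb lie lower and Ctsg higher in treated libraries with no overlap, and Prtn3 and Ms4a3 overlap.

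The members also varied together among untreated libraries. All 6 of 6 were highest in replicate 1, lower in replicate 3 and lowest in replicate 2, an order shared by 19.1% of the 9987 genes averaging 5 CPM or more. The highest untreated library held between 2.06 times (*Elane*) and 2.75 times (*Prtn3*) the lowest. In treated libraries the highest was between 1.1 times (*Prtn3*) and 1.84 times (*Elane*) the lowest, and 5 of the 6 members were lowest in replicate 3, as were 39.5% of the same 9987 genes. The exception was *Ms4a3*, which was lowest in replicate 1.

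Transcription factors known to act on granule genes were examined next, with 11 of 11 listed genes measured. *Cebpe* and *Cebpd*, C/EBP factors of granulocytes, and *Irf8*, a factor of monocyte and GMP fate, fell, and 0 of the 11 were called higher. Higher calls were made for 4.59% of all genes tested. *Cebpe* stood at 17.1, 8.20 and 14.0 CPM in untreated and 2.06, 1.34 and 1.80 CPM in treated replicates 1, 2 and 3, and fell by 2.85 on the log2 scale (SE 0.31, adjusted p = 0.0109 by limma). *Cebpd* fell by 2.84 (adjusted p = 0.0114) and *Irf8* fell by 2.41 (adjusted p = 0.0185, both by limma). The groups of these genes do not overlap, and their changes were of the size seen for the members. *Cebpa*, the C/EBP factor needed to form GMPs, changed by -1.58 on the log2 scale (adjusted p = 0.0577 by limma), at 41.8, 19.1 and 36.8 CPM in untreated and 14.9, 8.34 and 8.73 CPM in treated libraries. *Spi1*, which encodes PU.1, stood at 33.6, 16.0 and 26.5 CPM in untreated and at 32.5, 36.4 and 17.3 CPM in treated libraries, with overlapping groups and a log2 fold change of 0.17 (adjusted p = 0.788 by limma). Its sign changed without treated replicate 2 (-0.03) and without untreated replicate 2 (-0.13). *Myb*, whose product recognises the AACGG shared by *Elane* and *Prtn3*, was abundant in both groups. It stood at 739, 531 and 653 CPM in untreated and 503, 449 and 581 CPM in treated libraries. Its log2 fold change was -0.32 (adjusted p = 0.259 by limma). *Gfi1*, a repressor needed for neutrophil maturation, gave a log2 fold change of -1.31 (adjusted p = 0.158 by limma) with overlapping groups. *Cebpb*, *Cux1* and *Runx1* had log2 fold changes of -0.80, -0.37 and 0.28, and *Cbfb*, the partner of RUNX factors, 0.68, none of them with an adjusted p under 0.05. The median over the 11 factors was -0.80, beside -2.63 for the 6 members. The number of factors called lower was 2 without treated replicate 1, without treated replicate 2 or without untreated replicate 1, 4 without treated replicate 3, and 0 without untreated replicate 3. It was 5 with a mean of 5 CPM or more, 1 CPM added, a mean–variance trend, voom precision weights or quantile normalization, with *Cebpa* and *Cebpb* added, and 7 with array quality weights. *Cbfb* was called higher with the trend and with both kinds of weights.

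Other genes for primary granule contents and their handling were mixed. Of 14 listed genes 13 were measured, 2 fell, 1 rose and 10 did not pass the test, with a median log2 fold change of 0.04. *Prss57*, a granule serine protease, stood at 39.8, 12.3 and 19.6 CPM in untreated and 5.74, 4.32 and 3.85 CPM in treated replicates 1, 2 and 3, and fell by 2.21 (adjusted p = 0.0398 by limma). *Slpi*, an inhibitor of elastase and cathepsin G, fell by 2.48 (adjusted p = 0.0278 by limma). *Serpinb6a*, an intracellular inhibitor of serine proteases including cathepsin G, rose, from 5.75, 7.46 and 5.91 CPM in untreated to 38.8, 35.4 and 47.0 CPM in treated libraries, by 2.66 on the log2 scale (adjusted p = 0.00316 by limma). *Ctsc*, the peptidase that activates the granule serine proteases, stood at 17.8, 16.5 and 16.9 CPM in untreated and 18.5, 19.3 and 13.3 CPM in treated libraries (log2 fold change -0.02, adjusted p = 0.943 by limma). *Srgn*, the proteoglycan core protein that holds the proteases in the granule, was the most abundant gene of the list, at 350, 191 and 264 CPM in untreated and 371, 390 and 381 CPM in treated libraries (log2 fold change 0.55, adjusted p = 0.171 by limma). The rise of *Serpinb6a* was called in each of the 6 fits that left out 1 library. *Prss57* was called in the fits without treated replicate 3 and without untreated replicate 2, with log2 fold changes between -2.60 and -1.76 over the 6 fits, and *Slpi* in the fit without treated replicate 3, with changes between -2.73 and -2.09. With array quality weights 4 genes of the list were called lower.

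Genes for the granules that form later, the specific and gelatinase granules, were measured for 8 of 11 listed genes. All 8 were separated between the groups in the lower direction, an arrangement seen in 18.2% of all genes tested. For *Chil3* and *Mmp8* the gap was narrow. *Chil3* read at 21.7 CPM in treated replicate 2 and 21.8 CPM in untreated replicate 3, and *Mmp8* at 1.79 and 1.82 CPM. The median log2 fold change of the 8 genes was -2.23, and 2 passed the test. *Camp*, the cathelicidin precursor, fell by 3.78 (adjusted p = 0.0213) and *Ngp*, a neutrophil granule protein, fell by 3.20 (adjusted p = 0.0452, both by limma). The treated libraries of these genes spread more than those of the members. *Ltf*, which encodes lactoferrin, read at 1.47, 11.6 and 3.47 CPM in treated replicates 1, 2 and 3, beside 21.3, 18.7 and 26.3 CPM in untreated ones (log2 fold change -2.47, adjusted p = 0.0875 by limma). The summed level of the 8 genes was 10.6, 70.0 and 22.0 CPM in treated replicates 1, 2 and 3, highest in replicate 2, while that of the 6 members was 697, 656 and 474 CPM in the same libraries. *Chil3* belongs to a family of near-identical genes and its reads are uncertain. Without treated replicate 2, 7 of the 8 passed, without treated replicate 1 only *Camp* did, without treated replicate 3 both *Camp* and *Ngp* did, and 0 did when any 1 untreated library was left out. With 1 CPM added or quantile normalization 4 were called lower, and with a mean–variance trend or voom precision weights 5.

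The phagocyte oxidase supplies the superoxide from which the substrate of myeloperoxidase is formed. Of its 6 listed genes, all measured, *Ncf1* and *Ncf4*, cytosolic subunits, fell, with log2 fold changes of -2.06 (adjusted p = 0.0393) and -1.49 (adjusted p = 0.0489, both by limma), and the other 4 did not pass. *Cybb*, the catalytic subunit, stood at 27.2, 9.83 and 16.7 CPM in untreated and 6.99, 7.07 and 5.26 CPM in treated libraries (log2 fold change -1.36, adjusted p = 0.0796 by limma). *Rac2* and *Cyba* had log2 fold changes of -0.23 and -0.14 with overlapping groups. Both calls remained without treated replicate 3, and 0 oxidase genes were called when any other library was left out.

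Surface and receptor genes of GMPs were all measured, 16 of 16, and 3 of them fell, 0 rose and 13 did not pass, with a median log2 fold change of -0.80. *Clec12a*, a lectin receptor of myeloid cells, stood at 96.0, 33.8 and 63.6 CPM in untreated and 10.7, 11.4 and 8.47 CPM in treated replicates 1, 2 and 3, and fell by 2.55 (adjusted p = 0.0218 by limma). *Igsf6* fell by 2.75 (adjusted p = 0.0251) and *Csf1r*, the receptor of the macrophage growth factor, fell by 1.45 (adjusted p = 0.0245, both by limma). *Csf3r*, the receptor of the granulocyte growth factor, gave a log2 fold change of -1.52 (adjusted p = 0.062 by limma). All 3 calls were kept without treated replicate 3, 2 of them (*Clec12a* and *Igsf6*) without untreated replicate 2, and 0 when any other library was left out, while 3 genes of the list were called higher without treated replicate 3. Lower calls were 6 with quantile normalization and 8 with array quality weights, and higher calls ranged from 0 to 3 over the settings.

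**Figure D3:**
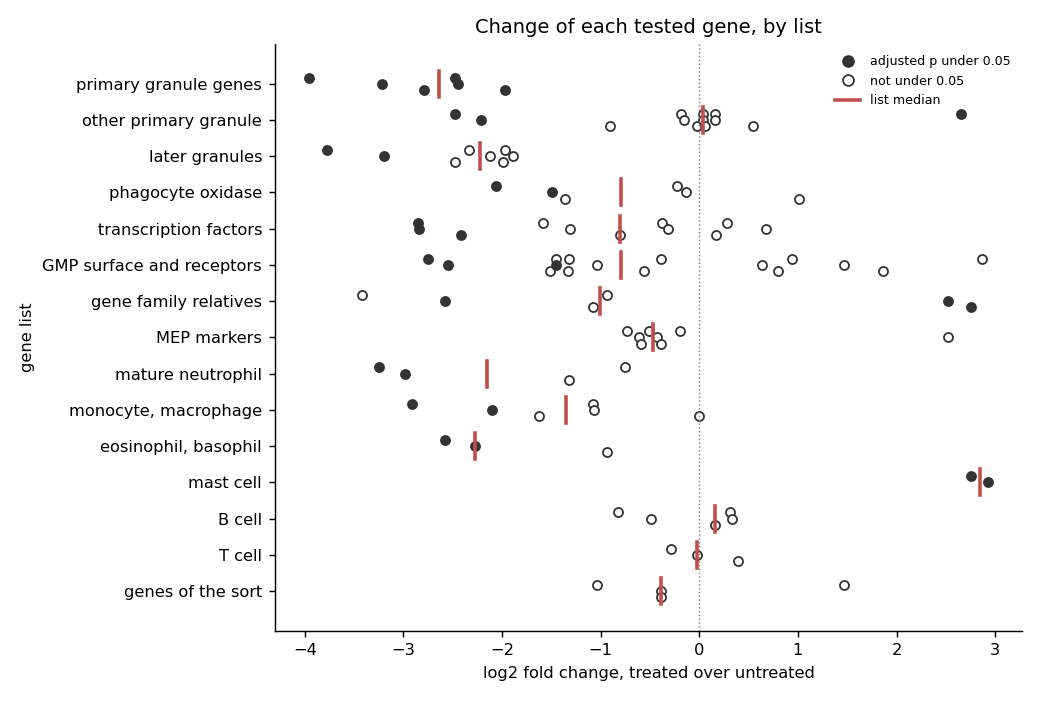
Log2 fold change, treated over untreated, of each tested gene in the 6 members and in 14 other lists, with filled circles for an adjusted p under 0.05 by limma and a red bar at the list median. The members' median is -2.63, that of later granule genes -2.23, that of transcription factors -0.80 and that of other primary granule genes 0.04.

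Relatives of the members by gene family were measured for 6 of 25 listed genes, so most of these families cannot be described here. *Epx*, the eosinophil peroxidase and a close relative of *Mpo*, stood at 7.23, 4.80 and 7.46 CPM in untreated and 0.884, 1.04 and 1.22 CPM in treated replicates 1, 2 and 3, and fell by 2.58 (adjusted p = 0.00666 by limma). *Ms4a2*, the beta chain of the IgE receptor and a relative of *Ms4a3*, rose, from 3.34, 1.70 and 3.91 CPM in untreated to 18.3, 29.6 and 13.1 CPM in treated libraries, by 2.76 (adjusted p = 0.0219 by limma). It lies 5778 bases from *Ms4a3* on the same strand. Per kb of annotated exon, the ratio of *Ms4a3* to *Ms4a2* was 47.1, 35.7 and 23.8 in untreated and 0.858, 0.629 and 1.32 in treated replicates 1, 2 and 3. *Ms4a3* was the higher of the pair in every untreated library, and in treated libraries the ratio lay on both sides of 1. *Ms4a6b*, of the same family, rose by 2.53 (adjusted p = 0.0229 by limma). The call of *Epx* was kept in each fit that left out 1 library, and those of *Ms4a2* and *Ms4a6b* were kept only without treated replicate 3, with log2 fold changes over the 6 fits between 2.40 and 3.03 and between 2.25 and 2.88.

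Within 100 kb of a member, 24 other genes were tested, of which 4 fell and 2 rose, with a median log2 fold change of -0.18. Near *Mpo*, *Bzrap1* at 7653 bases fell by 2.06 (adjusted p = 0.0354), *Rnf43* at 58042 bases fell by 1.55 (adjusted p = 0.00554) and *Epx* at 59587 bases fell by 2.58 (adjusted p = 0.00666, all by limma). Genes between and around them did not pass, such as *Supt4h1* with a log2 fold change of -0.26 and *Mks1* with -0.06. Near *Elane* and *Prtn3*, *Prss57* was called lower, at 83515 bases from *Prtn3*. *Med16*, 6491 bases from *Elane*, gave a log2 fold change of -0.06 (adjusted p = 0.769 by limma), and *BC005764*, which overlaps *Prtn3* on the opposite strand, one of -0.35 (adjusted p = 0.390 by limma). Both genes called higher, *Ms4a2* and *Ms4a6b* at 98241 bases, lie near *Ms4a3*. *Rnf43* and *Epx* were called in each fit that left out 1 library, and *Bzrap1* only without treated replicate 3, with log2 fold changes between -2.28 and -1.63. Those for *Prss57* and the *Ms4a* genes are given with their families above.

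The genes whose profile over the 6 libraries was most like that of the members were found among 9981 other genes averaging 5 CPM or more. Each profile was centred on its mean log2 value, and the measure was the root mean square distance to the mean of the 6 members' profiles. The nearest were *Cebpd* (0.131), *Prom1* (0.138), *Clec12a* (0.151), *Mgam* (0.161) and *Mtus1* (0.172). The members themselves lay at distances from 0.111 for *Prtn3* to 0.590 for *Fcnb*. *Prom1*, for example, read at 20.2, 8.13 and 11.3 CPM in untreated and 2.06, 2.23 and 1.80 CPM in treated replicates 1, 2 and 3. The likeness is a description over 6 libraries that share 2 group labels.

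The labelled cell type was checked against its markers. All 8 of 8 MEP markers were measured, including *Gata1*, *Klf1*, *Epor* and *Tal1*, at a summed 2280 to 2590 CPM in untreated and 1788 to 2110 CPM in treated libraries, and 0 of them passed the test at the adjusted p of 0.05 by limma (5 had an unadjusted p under 0.05). For 6 of the 8, however, every treated library lay below every untreated one, beside 18.2% of all genes tested, and for 1, *Itga2b*, every one lay above. Without *Itga2b* the other 7 summed to 2241 to 2566 CPM in untreated and 1474 to 2043 CPM in treated libraries. Most of their log2 fold changes were small beside those of the members, with a median of -0.47. The exception was *Itga2b*, an integrin of megakaryocytes and early progenitors, which stood at 37.5, 24.1 and 39.2 CPM in untreated and 319, 314 and 66.9 CPM in treated replicates 1, 2 and 3 (log2 fold change 2.52, adjusted p = 0.0694 by limma). Without treated replicate 3, 4 MEP markers were called lower and 1 higher, and with array quality weights 6 and 1. Of the 5 genes of the sort, *Ly6a* was not among the listed genes, and 0 of the other 4 passed the test in either direction, while with array quality weights 2 were called lower and 1 higher. *Kit* stood at 443, 327 and 486 CPM in untreated and 320, 304 and 323 CPM in treated libraries. *Cd34* stood at 57.6, 23.8 and 48.1 CPM in untreated and 172, 129 and 62.8 CPM in treated libraries (log2 fold change 1.47, adjusted p = 0.114 by limma), higher where the members were lower, and it was called without treated replicate 3. *Fcgr3* and *Fcgr2b*, the genes of CD16 and CD32, had log2 fold changes of -1.03 and -0.39, the latter with overlapping groups and a sign that changed without untreated replicate 1 (0.057).

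Some markers of other myeloid cells were lower along with the members, and others did not pass the test. Of 7 mature neutrophil markers 4 were measured, and *S100a8* (log2 fold change -2.99, adjusted p = 0.0267) and *S100a9* (-3.25, adjusted p = 0.0432, both by limma) fell while *Cxcr2* and *Retnlg* did not pass and overlapped between the groups, with a summed level of 153 to 351 CPM in untreated and 18.5 to 62.5 CPM in treated libraries. *Ly6g*, a defining gene of mature neutrophils, was not among the listed genes. Of 7 monocyte and macrophage markers 6 were measured, and *F13a1* fell by 2.92 (adjusted p = 0.0154) and *Mpeg1* fell by 2.10 (adjusted p = 0.0277, both by limma) while 4 did not pass, among them *Adgre1*, whose groups overlapped, with a summed level of 54.2 to 112 CPM in untreated and 12.9 to 23.1 CPM in treated libraries. Lower calls among them were 4 with array quality weights and 5 with quantile normalization. Of 7 eosinophil and basophil markers 3 were measured, *Epx* and *Prg2* fell and *Mcpt8* did not pass, and the sum was 14.1 to 20.8 CPM in untreated and 3.05 to 5.01 CPM in treated libraries. Mast cell markers went the other way. *Cpa3* and *Ms4a2*, the 2 measured of 7, rose, and their sum was 6.58 to 13.9 CPM in untreated and 59.2 to 80.3 CPM in treated libraries. The 5 measured B cell markers summed to between 7.44 and 19.6 CPM in all libraries and the 3 measured T cell markers to between 6.33 and 14.1 CPM, and 0 passed. The part of such cells in the change of the 6 members was not tested. *Cpa3* and *Epx* were called in each fit that left out 1 library, and *Ms4a2* only without treated replicate 3. *S100a8* and *S100a9* were called without treated replicate 2 or 3, *Prg2* likewise, *Mpeg1* without treated replicate 3 or untreated replicate 2, and *F13a1* without treated replicate 2 or 3 or untreated replicate 1 or 2.

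**Figure D4:**
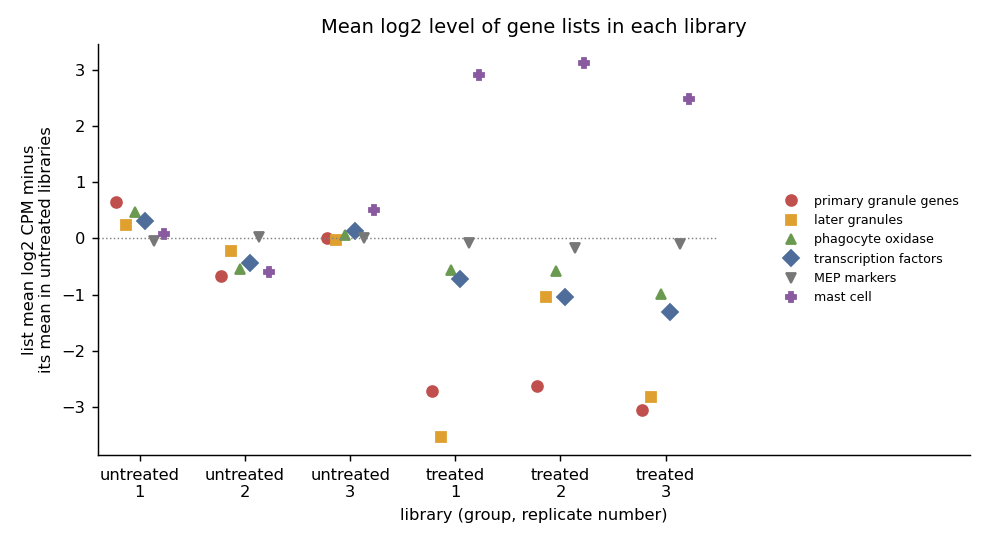
Mean log2 CPM of the genes of 6 lists in each library, less its mean over the 3 untreated libraries, which are shown first. The members lie low in all 3 treated libraries, while later granule genes are higher in treated replicate 2 (mean log2 CPM 2.64) than in treated replicates 1 (0.16) and 3 (0.87).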

How the data were processed

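RNA-seq was available for 3 dox-treated and 3 untreated MEP libraries. Adapters were trimmed by the authors using Cutadapt, and the rest was quantified with RSEM against Ensembl transcripts of NCBIM37 and normalized using limma. The deposited values are log2 CPM with an offset of 0.5 reads, and 12101 genes are listed. Strand use in counting is not given in the sources used here. Whole reads were recovered from these values (100% whole, within 6.64e-09 reads), which gave CPM and Poisson intervals.

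Differential expression used lmFit and eBayes of limma (version 3.58.1, R 4.3.3) on the log2 values of the 12088 genes that reached 1 CPM in 3 or more libraries. P-values were adjusted after Benjamini and Hochberg, with 0.05 as threshold. The offset of 0.5 reads makes log2 changes of scarce genes too small. Single values had a two-sided exact permutation test. Alternatives changed filter, offset, variance model, weights, scaling and block, or left out 1 library. The members and gene lists were chosen with earlier results of these data known. Genes named were the 6 members, per list the 4 smallest p-values and the highest mean, all sort, oxidase and factor genes, tested neighbours, and the 5 nearest profiles; where a list is long, fewer are printed, and some named by this rule are not reported here. *Ctsc*, *Csf3r*, *Ltf*, *Chil3*, *Mmp8*, *Klf1*, *Tal1* and *Adgre1* were named after their values were seen. Older annotation symbols were matched through RefSeq synonyms. Figures used matplotlib 3.10.9 (Python 3.11.15).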

Additional observations from a re-analysis of the deposited data

How the results depend on the processing

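The log2 fold change of each of the 6 members stayed negative in all 15 alternatives, and 6 of 6 were called lower with no filter, a mean of at least 5 CPM, 1 CPM added, a mean–variance trend, array quality weights, voom precision weights, median-centred libraries and quantile normalization. Same-numbered replicates did not deviate together (correlations of 0.018, -0.121 and -0.299 over genes). No treated library correlated best with the untreated library of its number. Whether same-numbered libraries were collected together is not given in the sources used here, and these correlations cannot settle it. With the replicate block 0 of 6 members were called, at adjusted p between 0.0552 and 0.0759, 29 of all genes were lower and 53 higher, and 3 genes of the other lists were lower and 1 higher. Leaving out 1 library gave 1 to 6 members called, 36 to 1687 genes lower and 92 to 1801 higher. The main counts were 384 and 555. They were 747 and 909 with a mean–variance trend and 2601 and 2515 with array quality weights. On the other lists 18 genes were called lower and 4 higher. Lower calls were 28 with the trend, 40 with array quality weights and 29 with quantile normalization, and higher calls were 7, 9 and, with voom precision weights, 7. Leaving out 1 library gave 1 to 27 lower and 2 to 8 higher. The *Ms4a3* to *Mpo* difference, -0.04, became 0.051 with 1 CPM added and lay between -0.23 and 0.16 with 1 library left out. With 1 library left out, the log2 fold change of *Spi1* lay between -0.13 and 0.50, negative without treated or untreated replicate 2, and that of *Fcgr2b* between -0.79 and 0.057, positive without untreated replicate 1. The causes were not tested. Among the 6 members depth limits *Fcnb* most, with 32 to 49 reads in treated libraries, and some genes called on other lists rest on fewer.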
